A study of Mus musculus with 18 samples.

Results

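A set of genes for the lysosomal membrane and for sterol export from the lysosome, 10 of the 43309 in the table, was followed across mouse bone marrow-derived macrophages. They were listed by name, with earlier results of these data known: Lamp1, Lamp2, Cd63, Cd68, Scarb2, Npc1, Npc2, Laptm4a, Laptm5 and Mfsd12. Each name matched 1 row, and 10 of 10 were among the 21336 genes that passed a filter on low values that asked 3 or more libraries for a normalized count of 1 or higher. The cells came from the marrow of C57BL/6 mice and grew for 7 days with M-CSF at 10 ng/ml and 10% serum, in all groups alike. They then received, for 18 h, either LPS at 100 ng/ml with interferon gamma at 20 ng/ml (called M1) or IL-4 at 20 ng/ml (called M2). The genotypes, each sequenced as total RNA in both states, were wild-type (WT), PGRN knockout, which lacks progranulin (gene Grn), and myeloid 14-3-3e knockout, which targets an adaptor that binds phosphorylated proteins (gene Ywhae). That makes 6 groups of 3 libraries, 18 in all. The Cre driver or promoter of the myeloid deletion and the age of the mice are not given in the sources used here. Nor do these say if replicates are separate mice or cultures, so each p-value speaks for the spread among the libraries at hand, which may be technical.

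The lysosome breaks down what a macrophage engulfs, and its limiting membrane must both withstand the hydrolases inside and let the products out. Lamp1 and Lamp2 encode the heavily glycosylated proteins that coat the inner face of that membrane, and Cd68 (macrosialin) is their relative in macrophages. Cholesterol freed in the lumen is picked up by the soluble protein NPC2 and handed to the membrane protein NPC1, which exports it. Progranulin is itself a lysosomal protein, carried there with sortilin or prosaposin. Many lysosomal genes carry a short E-box in their promoters that is bound by the transcription factor TFEB and its relatives.

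Promoter windows from 250 bases before to 50 after the start site were read from RefSeq on GRCm38.p6 and were matched for 9 of the 10 genes; Npc1 was not matched. The RefSeq start lay 1176 bases from the outermost annotated start for Scarb2, 8356 for Cd63 and at most 357 for the others. Motifs were searched on both strands. They were CACGTG, the core of the TFEB site, its longer form TCACGTG, and a 10-base form that contains both. The last was TCATGTG, a site of the related factor MITF that shares no match with the others. CACGTG lay in 1 of the 9 windows, that of Lamp1, and in 7.15% of all 32851 windows. TCACGTG lay in the same window and in 3.77% of all. The 10-base form lay in 0 of the 9 windows and in 0.326% of all. Lamp1 held 4 copies, with first bases 61, 45, 28 and 15 before the start, and 4 or more copies lay in 8 windows of the whole table (0.0244%). TCATGTG lay in the window of Scarb2, 32 bases before the start, and in 3.77% of all windows. The windows of Lamp1 and Mfsd12 are shown because both genes rose without progranulin while the first has the E-boxes, in capitals, and the second holds none of the motifs. From Scarb2 the 30 bases around its match are shown, with the match in capitals, where it reads on the other strand.
Lamp1, chr8:13158911-13159160, plus strand: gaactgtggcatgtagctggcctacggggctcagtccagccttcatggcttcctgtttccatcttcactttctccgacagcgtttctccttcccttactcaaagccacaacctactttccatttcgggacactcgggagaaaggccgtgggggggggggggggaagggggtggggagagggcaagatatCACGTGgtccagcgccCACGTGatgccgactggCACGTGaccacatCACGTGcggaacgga
Mfsd12, chr10:81357241-81357490, plus strand: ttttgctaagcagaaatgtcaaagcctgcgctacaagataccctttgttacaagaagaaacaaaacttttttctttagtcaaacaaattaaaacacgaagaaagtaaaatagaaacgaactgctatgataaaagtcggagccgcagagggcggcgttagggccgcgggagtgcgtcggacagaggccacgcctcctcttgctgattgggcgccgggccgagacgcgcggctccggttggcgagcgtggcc
Scarb2, chr5:92505673-92505702, minus strand: ggccgctgcagggCACATGActgaaggcct
A match is a description of letters and does not show that a factor binds. Among the genes of other lysosomal lists with a window, CACGTG lay in 30.8% of windows of V-ATPase subunits, 29.2% of sorting and trafficking genes, 28.2% of luminal hydrolases and cofactors, 21.6% of other lysosomal membrane proteins, 17.4% of the sterol route, 11.1% of regulators and 7.41% of tetraspanins.

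Libraries held 5.16 to 105 M recovered reads, and the fewest reads behind any value of the 10 genes were 251 (Npc1 in WT M1 replicate 1). Ribosomal RNA-like genes took 14.8% of reads in WT M2 replicate 3 and 1.88% in WT M1 replicate 2, against at most 0.232% elsewhere. Grn stood at 23.9 to 497 normalized counts in the 6 PGRN knockout libraries against 29365 to 91739 in the 6 WT libraries. Ywhae was lowered and not lost in the 14-3-3e knockout, with a difference from WT of -0.72 ± 0.08 log2 units in M1 and -0.85 ± 0.08 in M2 (adjusted p = 3.02e-05 and 7.76e-06, limma). All 12 macrophage identity markers passed the filter and none was at 0 in a whole group. Their summed share of reads in WT, PGRN knockout and 14-3-3e knockout was 1.24 to 2.0%, 1.88 to 2.26% and 0.944 to 1.3% in M1, and 0.693 to 0.726%, 1.39 to 1.54% and 0.389 to 0.478% in M2. The 13 stromal markers, of which none was at 0 either, took 1.79 to 3.06%, 1.40 to 1.63% and 3.26 to 3.95% in M1, and 1.93 to 2.98%, 1.35 to 1.77% and 2.95 to 3.74% in M2. Against WT, 4 of 13 stromal markers fell in PGRN knockout M1 (11.1% of all genes tested fell), and 5 fell and 1 rose in M2 (8.3% and 11.1%). In 14-3-3e knockout 5 rose in M1 and 2 in M2 (12% and 3.32%). Of the 12 macrophage markers 5 rose and 1 fell in PGRN knockout M1 (14.2% and 11.1% of all genes), and 4 rose in M2 (11.1%). With 14-3-3e knockout 3 rose and 5 fell in M1 (12% and 9.31%), and 1 rose and 2 fell in M2 (3.32% and 3.37%). The macrophage sums of both knockouts overlapped with WT in M1 and not in M2. The stromal sums lay apart from WT, except for 14-3-3e knockout in M2, which overlapped. Neither these sums nor their part in the results below were tested. In bulk RNA, fewer cells of a type and less RNA per cell cannot be told apart. Markers of neutrophils, dendritic cells, lymphocytes, mast cells, osteoclasts and red cells summed to at most 0.0800% of reads each in any library, and Ly6g, Retnlg, Siglech and Cd3d were among those at 0 in at least 1 whole group.

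**Figure D1:**
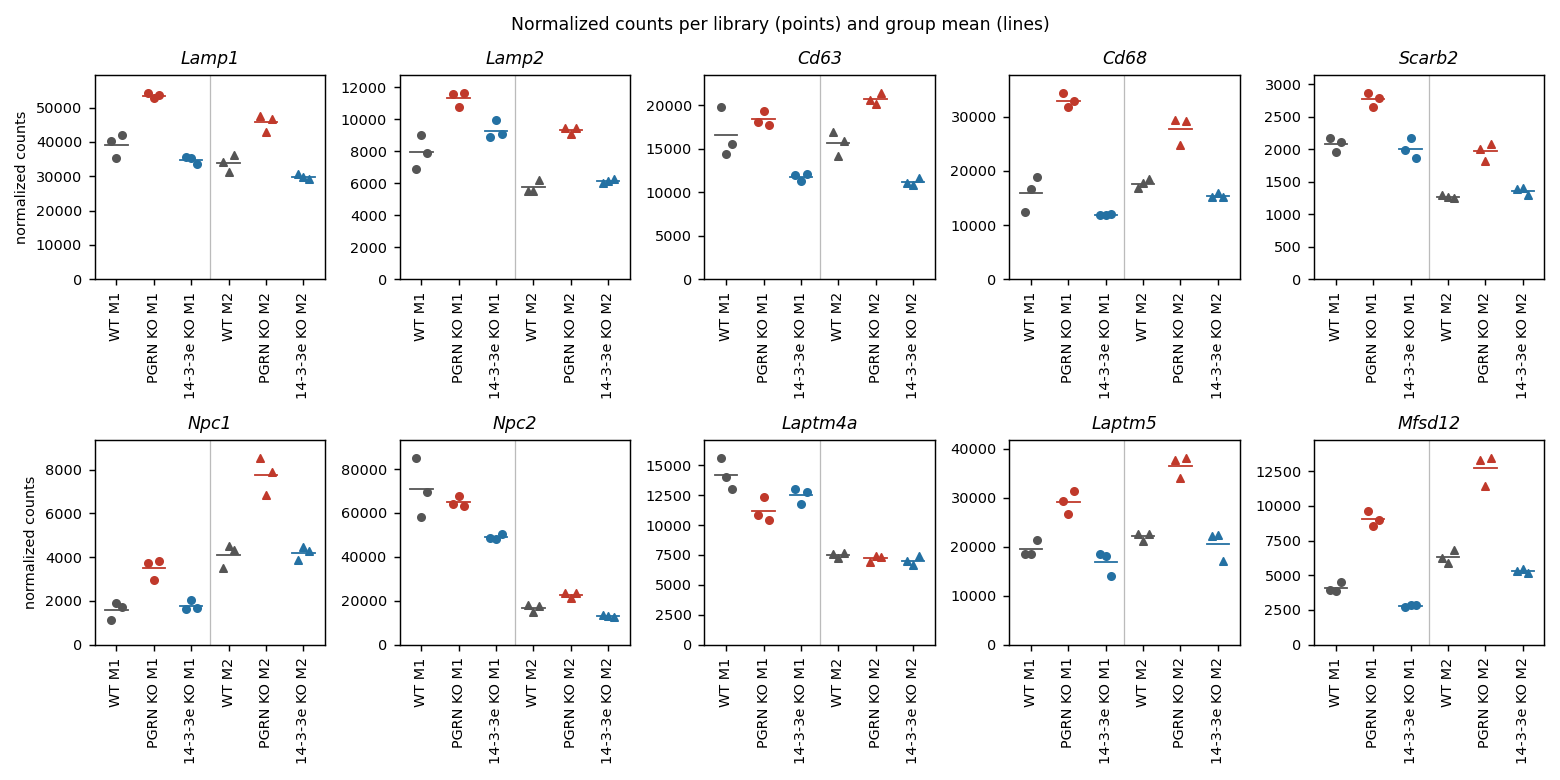
Normalized counts (vertical axis, from 0) of each of the 10 genes in the 18 libraries; circles are M1 and triangles M2, grey is WT, red PGRN knockout and blue 14-3-3e knockout, and the horizontal line is the mean of 3 libraries. For Mfsd12 the red points stand above the grey ones and these above the blue ones in both states, while for Laptm4a the red and grey points overlap in M2.

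Levels between genes were compared per kilobase of the principal transcript, as mean ± SD over 3 libraries. In WT M1 the order ran from Npc2 (21462 ± 4078 normalized counts per kilobase) through Lamp1 (17556 ± 1526), Cd63 (14985 ± 2578) and Cd68 (12996 ± 2605) to Laptm4a (8015 ± 729) and Laptm5 (7479 ± 663). Far lower came Lamp2 (2197 ± 302), Mfsd12 (1026 ± 90.3), Scarb2 (443 ± 23.9) and Npc1 (301 ± 76.6). The first 4 were each within 1 SD of their neighbour, as were Laptm4a and Laptm5. In WT M2 Lamp1 (15170 ± 1123), Cd68 (14378 ± 686) and Cd63 (14088 ± 1253) led within 1 SD of one another, Npc2 stood at place 5 (5038 ± 514), and Lamp2 (1594 ± 111) and Mfsd12 (1588 ± 123) were level. Of the pair that exports cholesterol, the soluble partner was thus the more abundant in both states. In the PGRN knockout Cd68 took the first place, with 26825 ± 1082 in M1 and 22602 ± 2141 in M2. The order depends on the length used: over the union of all exons Cd63 stood at place 6 in WT M1 and Lamp1 at place 1.

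Loss of progranulin was accompanied by higher levels of most of the set in both states. In M1, 7 of 10 rose and 1 fell, where 14.2% of all genes tested rose and 11.1% fell. In M2, 9 of 10 rose, where 11.1% of all genes rose and 8.3% fell. For each of the 10, at most 10.5% of genes tested had a higher mean count. A stricter filter asked 3 or more libraries for at least 5 reads per M recovered reads and kept 11645 genes. Of these, 4970 passed in M1 (60.6% of them higher) and 4491 in M2 (57.8% higher), with the same counts of members. Shares over all genes thus understate how often well-covered genes were called. The median difference of the 10 was 0.49 log2 units in M1 and 0.64 in M2, against 0.01 and 0.00 over all genes tested. Mfsd12, Npc1 and Cd68 had the highest values in M1, at 2.22-fold, 2.27-fold and 2.09-fold of WT. Cd63 and Npc2 did not pass in M1, and Laptm4a fell in M1 and did not pass in M2. Each difference here is a log2 difference ± standard error from limma, fitted over all genes and 6 group means with n = 3 per group, with Benjamini-Hochberg adjustment and a threshold of 0.05.

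The myeloid 14-3-3e knockout moved fewer of the 10, and those that passed were lower, apart from Lamp2 under some alternatives below. In M1, 4 fell (Mfsd12, Npc2, Cd63 and Cd68) and 6 did not pass, where 9.31% of all genes fell and 12% rose. In M2, Cd63 fell and 9 did not pass, where 3.37% of all genes fell and 3.32% rose. Under the stricter filter 4525 of 11645 genes passed in M1 (56.4% of them higher) and 1676 in M2 (46.4% higher). By number alone, the 4 and 1 members called are near these shares. In M1 members then split 1 higher (Lamp2) and 4 lower, and 1 (Lamp2) and 5 without both ribosomal RNA-rich libraries. The median of the 10 was -0.20 in M1 and -0.15 in M2, against 0.07 and 0.00 over all genes. With precision weights on recovered reads 4 of the 10 were again lower in M1, while the median of all genes turned to -0.11 and the share of all calls that were higher went from 56.2 to 42.3%. The shares over all genes are unstable here: leaving out 1 library moved all calls from 4541 to between 2265 and 6470 in M1 and from 1427 to between 577 and 3277 in M2. When only the WT M1 and 14-3-3e knockout M1 libraries were fitted, 1 of the 4 passed (Mfsd12). Both knockouts were compared with the same WT libraries, so their differences from WT are not independent of each other.

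**Figure D2:**
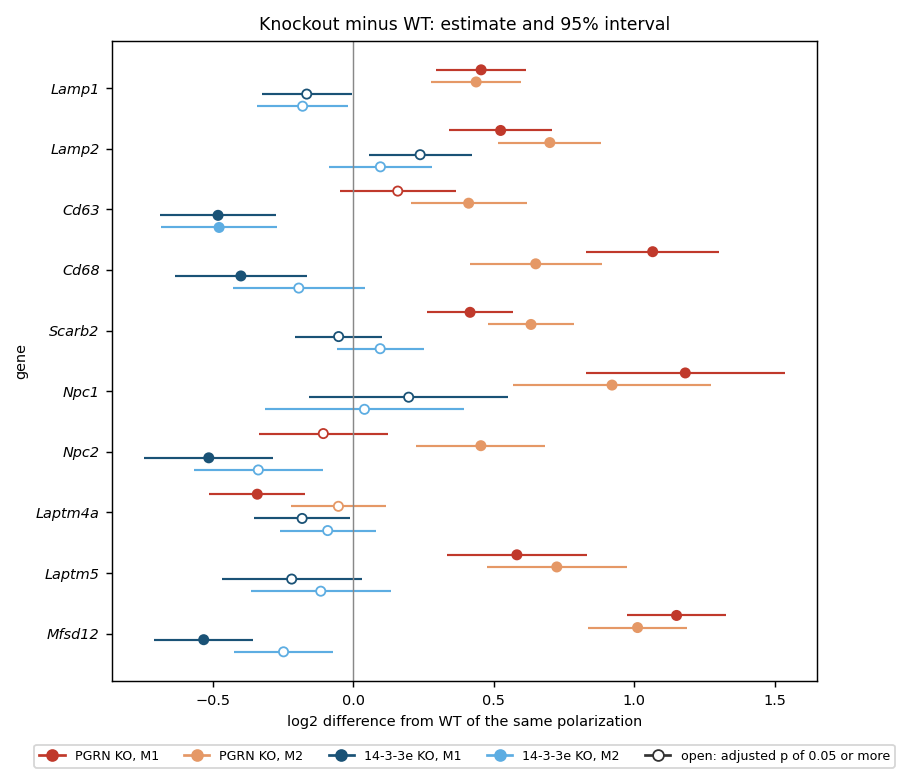
Log2 difference of each knockout from WT of the same state (horizontal axis) for the 10 genes, with 95% intervals from limma; filled points have an adjusted p under 0.05 and open points do not. The PGRN knockout points lie to the right of 0 for 8 genes in M1 and 9 in M2, and the filled 14-3-3e knockout points, 4 in M1 and 1 in M2, lie to its left.

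The M1 and M2 states differed for most of the set, in opposite directions for different genes. In WT, 5 of 10 were higher in M1 and 2 lower, where 18.9% of all genes were higher and 20% lower. In PGRN knockout the counts were 5 and 3 (18% and 19.5% of all genes), and in 14-3-3e knockout 5 and 3 (15.6% and 14.4%), or 5 and 4 with its same-numbered libraries as pairs. Under the stricter filter 7067 of 11645 genes passed in WT, 7126 in PGRN knockout and 5953 in 14-3-3e knockout. Most well-covered genes thus differed between states too, and such a difference is not particular to the set. Npc2, Laptm4a, Scarb2, Lamp2 and Lamp1 were the 5 higher in M1, and Npc1 and Mfsd12 were lower in M1, in each of the 3 genotypes.

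**Figure D3:**
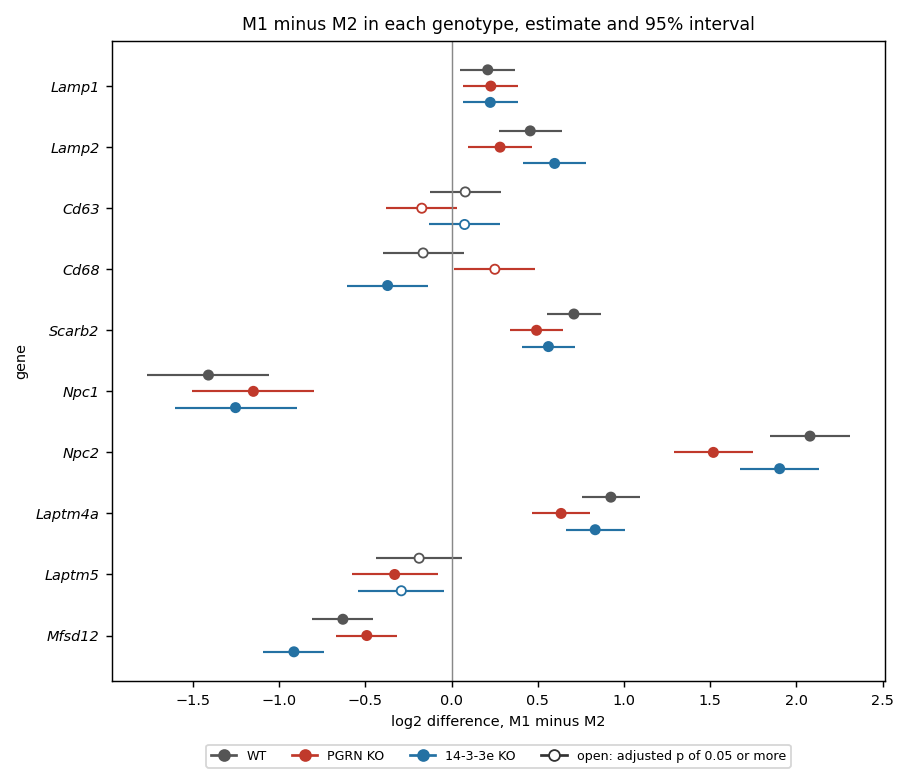
Log2 difference between M1 and M2 (horizontal axis, positive where M1 is higher) of the 10 genes in each genotype, with 95% intervals from limma; filled points have an adjusted p under 0.05. Npc2 lies between 1.52 and 2.08 and Npc1 between -1.41 and -1.15 in the 3 genotypes.

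Npc1, the membrane transporter that exports cholesterol (chromosome 18, 12189692 to 12236400, minus strand, GRCm38), was lower in M1 than in M2 and rose without progranulin. In M1 it stood at 1119, 1883 and 1709.8 normalized counts for WT, 3732, 2953 and 3816 for PGRN knockout and 1604, 2036 and 1664 for 14-3-3e knockout. In M2 the values were 3498, 4487 and 4314 for WT, 8509, 6839 and 7895 for PGRN knockout and 3885, 4443 and 4264 for 14-3-3e knockout. The PGRN knockout libraries were above all WT libraries of their state, the 14-3-3e knockout libraries overlapped WT, and every M2 library was above the M1 libraries of its genotype. The rise in PGRN knockout was 1.18 ± 0.17 (adjusted p = 9.32e-05) in M1 and 0.92 ± 0.17 (adjusted p = 0.000992) in M2. In 14-3-3e knockout the difference was 0.20 ± 0.17 (adjusted p = 0.438) in M1 and 0.04 ± 0.17 (adjusted p = 0.927) in M2, with 95% intervals of -0.16 to 0.55 and -0.31 to 0.39. M1 was below M2, with log2 differences of -1.41 ± 0.17 (adjusted p = 3.3e-06) in WT, -1.15 ± 0.17 (adjusted p = 3.2e-05) in PGRN knockout and -1.25 ± 0.17 (adjusted p = 1.59e-05) in 14-3-3e knockout. Npc1 shares 511 exon bases with Rmc1 (3110002H16Rik in the table) and 90 with Gm15956 on the opposite strand. The sources used here do not say whether the counting used strand, so reads of these stretches cannot be assigned; the group means of Rmc1 were 549 to 869.

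Npc2, the soluble protein that hands cholesterol to NPC1 (chromosome 12, 84754562 to 84773152, minus strand), behaved the other way between states. Its M1 values were 84823, 57999.9 and 69582 for WT, 64252, 67681 and 63105 for PGRN knockout and 48652, 47907 and 50472 for 14-3-3e knockout. In M2 they were 17787, 14676 and 17400.0 for WT, 23481, 21072 and 23602 for PGRN knockout and 13362, 13196 and 12769 for 14-3-3e knockout. Every M1 library was above every M2 library, and WT M1 replicate 1 was the highest of all. M1 was above M2 by 2.08 ± 0.11 (adjusted p = 8.76e-11) in WT, 4.22-fold, by 1.52 ± 0.11 (adjusted p = 5.6e-09) in PGRN knockout and by 1.90 ± 0.11 (adjusted p = 3.37e-10) in 14-3-3e knockout. In PGRN knockout Npc2 rose in M2 by 0.45 ± 0.11 (adjusted p = 0.00686), while in M1 the groups overlapped (-0.11 ± 0.11, adjusted p = 0.525; 0.03, adjusted p = 0.847, without WT M1 replicate 1). In 14-3-3e knockout it fell in M1, with a log2 difference of -0.51 ± 0.11 (adjusted p = 0.00466), a call lost when only these 2 groups were fitted (adjusted p = 0.109). In M2 the difference was -0.34 ± 0.11 (adjusted p = 0.0731), which passed without WT M1 replicate 1 (-0.34, adjusted p = 0.0119), WT M1 replicate 2 (-0.34, adjusted p = 0.0208) or WT M2 replicate 2 (-0.42, adjusted p = 0.0362).

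Lamp1 (chromosome 8, 13159161 to 13175338, plus strand), whose promoter held the 4 E-boxes shown above, encodes a main coat protein of the lysosomal membrane and rose without progranulin. Its M1 values were 40191, 35328 and 41880.0 for WT, 54212, 52676 and 53635 for PGRN knockout and 35738, 35188 and 33529 for 14-3-3e knockout. In M2 they were 34222, 31129.9 and 36087 for WT, 47684, 42897 and 46661 for PGRN knockout and 30522, 29776 and 29097 for 14-3-3e knockout. The PGRN knockout libraries were above all WT libraries in both states, by 0.45 ± 0.08 (adjusted p = 0.00037) in M1 and 0.44 ± 0.08 (adjusted p = 0.000665) in M2. In 14-3-3e knockout the differences were -0.17 ± 0.08 (adjusted p = 0.131) in M1 and -0.18 ± 0.08 (adjusted p = 0.164) in M2. The first passed without WT M1 replicate 2 (-0.24, adjusted p = 0.023) and without both ribosomal RNA-rich libraries (-0.24, adjusted p = 0.0177). M1 was above M2 by 0.21 ± 0.08 (adjusted p = 0.0369) in WT, with groups that overlapped, by 0.23 ± 0.08 (adjusted p = 0.025) in PGRN knockout and by 0.22 ± 0.08 (adjusted p = 0.0329) in 14-3-3e knockout. None of these 3 calls held when libraries were scaled by their totals (0.03, 0.01 and 0.00; adjusted p = 0.736, 0.969 and 0.992). In WT the call was also lost when only the 2 groups were fitted (adjusted p = 0.245), with libraries thinned to equal depth (0.21, adjusted p = 0.051) and without WT M1 replicate 1 or 3 or WT M2 replicate 1 or 2 (0.15 to 0.22, adjusted p = 0.0599 to 0.167). In PGRN knockout it was lost without M1 replicate 1 or 3 or M2 replicate 2 (0.18 to 0.23, adjusted p = 0.0614 to 0.111), and in 14-3-3e knockout without M1 replicate 1 or 2 or any 1 of the 3 M2 libraries (0.21 to 0.24, adjusted p = 0.0548 to 0.104). Lamp1 shares 249 exon bases with Grtp1 on the opposite strand, whose group means were 20.0 to 61.6.

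Lamp2 (chromosome X, 38401357 to 38456454, minus strand) encodes the second coat protein, one form of which takes proteins into the lysosome. It stood in M1 at 6858, 9035 and 7863 for WT, 11578, 10769.7 and 11627 for PGRN knockout and 8871, 9924 and 9081 for 14-3-3e knockout. In M2 it stood at 5494, 5535 and 6206 for WT, 9429, 9081 and 9437 for PGRN knockout and 5994, 6135 and 6275 for 14-3-3e knockout. The rise in PGRN knockout was 0.52 ± 0.09 (adjusted p = 0.000351) in M1 and 0.70 ± 0.09 (adjusted p = 3.36e-05) in M2, and WT overlapped with 14-3-3e knockout in both states. Its 14-3-3e estimate in M1 was positive and did not pass (0.24 ± 0.09, adjusted p = 0.0608). That estimate passed without WT M1 replicate 2 (0.34, adjusted p = 0.00498) and without both ribosomal RNA-rich libraries (0.34, adjusted p = 0.00372). It also passed with scaling by library totals (0.32, adjusted p = 0.0249) and among the genes of the stricter filter (adjusted p = 0.0406). M1 was above M2 in WT by 0.46 ± 0.09 (adjusted p = 0.00042), in PGRN knockout by 0.28 ± 0.09 (adjusted p = 0.0163) and in 14-3-3e knockout by 0.60 ± 0.09 (adjusted p = 3.69e-05). The call in PGRN knockout was lost without M1 replicate 1 or 3 or M2 replicate 2 (0.26 in each, adjusted p = 0.0536 to 0.0555) and with scaling by library totals (0.06, adjusted p = 0.678).

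Scarb2, which encodes LIMP-2, the membrane receptor that carries glucocerebrosidase to the lysosome (chromosome 5, 92441314 to 92506833, minus strand), moved with both progranulin and state. Its M1 values were 2176, 1956 and 2106 for WT, 2866, 2657 and 2795 for PGRN knockout and 1983, 2168 and 1872 for 14-3-3e knockout. In M2 they were 1293, 1262 and 1255 for WT, 2013, 1826 and 2078 for PGRN knockout and 1384, 1400.5 and 1290.3 for 14-3-3e knockout. The PGRN knockout M2 libraries overlapped with the WT M1 libraries. The rise in PGRN knockout was 0.42 ± 0.07 (adjusted p = 0.000569) in M1 and 0.63 ± 0.07 (adjusted p = 1.76e-05) in M2, and the differences in 14-3-3e knockout were -0.05 ± 0.07 (adjusted p = 0.657) and 0.10 ± 0.07 (adjusted p = 0.472). M1 was above M2 by 0.71 ± 0.07 (adjusted p = 5.6e-07) in WT, 0.49 ± 0.07 (adjusted p = 3.61e-05) in PGRN knockout and 0.56 ± 0.07 (adjusted p = 1.09e-05) in 14-3-3e knockout, without overlap in any genotype.

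Cd68, the macrosialin gene (chromosome 11, 69664213 to 69666153, minus strand), is a common macrophage marker. In M1 it stood at 12504, 16645 and 18808 for WT, 34389.6, 31739 and 32857 for PGRN knockout and 11882, 11902 and 12060.4 for 14-3-3e knockout. In M2 it stood at 16788, 17803 and 18464 for WT, 29342, 24759 and 29299 for PGRN knockout and 15159, 15932 and 15278 for 14-3-3e knockout. The lowest WT M1 library was just above the highest 14-3-3e knockout one, and the PGRN knockout libraries were far above both. The rise in PGRN knockout was 1.07 ± 0.11 (adjusted p = 5.97e-06) in M1 and 0.65 ± 0.11 (adjusted p = 0.000607) in M2. In 14-3-3e knockout it fell in M1, with a log2 difference of -0.40 ± 0.11 (adjusted p = 0.0192), and in M2 the difference was -0.19 ± 0.11 (adjusted p = 0.317). The fall was lost when only the 2 groups were fitted (adjusted p = 0.178), with scaling by library totals (-0.32, adjusted p = 0.0627), and without WT M1 replicate 3 (-0.27, adjusted p = 0.0815) or 14-3-3e knockout M1 replicate 1 (-0.40, adjusted p = 0.0519) or 2 (-0.40, adjusted p = 0.0595). M1 was below M2 in 14-3-3e knockout, with a log2 difference of -0.37 ± 0.11 (adjusted p = 0.017), which was lost without M2 replicate 2 (-0.35, adjusted p = 0.0586). In WT and PGRN knockout the differences between states were -0.17 ± 0.11 (adjusted p = 0.268) and 0.25 ± 0.11 (adjusted p = 0.0906). The first passed without WT M1 replicate 3 (-0.29, adjusted p = 0.0393) and with scaling by library totals (-0.34, adjusted p = 0.0269). The second passed when only the 2 groups were fitted (adjusted p = 0.0239) and without WT M1 replicate 1 (0.25, adjusted p = 0.0089) or 3 (0.25, adjusted p = 0.0472), libraries of another group that enter only through the shared variance.

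Cd63, a tetraspanin of late endosomes and secreted vesicles (chromosome 10, 128900989 to 128912822, plus strand), was the gene lowered in both states of the 14-3-3e knockout. Its M1 values were 19857, 14445 and 15553 for WT, 18067, 19343 and 17746 for PGRN knockout and 11928, 11342 and 12134 for 14-3-3e knockout. In M2 they were 16879.8, 14131 and 15860.2 for WT, 20592, 20169 and 21393 for PGRN knockout and 11097, 10829.7 and 11678 for 14-3-3e knockout. Every 14-3-3e knockout library was below every WT library of its state. The log2 difference from WT was -0.48 ± 0.10 (adjusted p = 0.00367) in M1, a call lost when only those 2 groups were fitted (adjusted p = 0.106), and -0.48 ± 0.10 (adjusted p = 0.00865) in M2. In PGRN knockout Cd63 rose in M2 by 0.41 ± 0.10 (adjusted p = 0.00676) and overlapped with WT in M1 (0.16 ± 0.10, adjusted p = 0.264), where it passed without WT M1 replicate 1 (0.29, adjusted p = 0.0105). Between states the differences were 0.08 ± 0.10 (adjusted p = 0.568) in WT, -0.17 ± 0.10 (adjusted p = 0.192) in PGRN knockout and 0.08 ± 0.10 (adjusted p = 0.65) in 14-3-3e knockout. The value in PGRN knockout passed when only its 2 groups were fitted (adjusted p = 0.0259) and with scaling by library totals (-0.39, adjusted p = 0.00395).

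Laptm5, a transmembrane protein of lysosomes in blood cells (chromosome 4, 130913125 to 130936141, plus strand), rose without progranulin in both states. In M1 it stood at 18488, 18412 and 21435 for WT, 29228, 26731 and 31338 for PGRN knockout and 18472, 17996 and 13925 for 14-3-3e knockout. In M2 it stood at 22581, 21156 and 22589.5 for WT, 37731, 33923 and 38010.3 for PGRN knockout and 22236, 22320.0 and 17106 for 14-3-3e knockout. Replicate 3 was the low library in both 14-3-3e knockout groups, which overlapped with WT. The rise in PGRN knockout was 0.58 ± 0.12 (adjusted p = 0.00175) in M1 and 0.72 ± 0.12 (adjusted p = 0.000398) in M2, and the differences in 14-3-3e knockout were -0.22 ± 0.12 (adjusted p = 0.201) and -0.12 ± 0.12 (adjusted p = 0.616). M1 was below M2 in PGRN knockout, with a log2 difference of -0.33 ± 0.12 (adjusted p = 0.0357), which was lost without M1 replicate 1 or 2 or M2 replicate 1 or 3 (-0.33 to -0.27, adjusted p = 0.0752 to 0.138). In WT and 14-3-3e knockout the difference between states was -0.19 ± 0.12 (adjusted p = 0.232) and -0.29 ± 0.12 (adjusted p = 0.0747). The same-numbered 14-3-3e knockout libraries of M1 and M2 deviated together, and with these as pairs Laptm5 was lower in M1 of that genotype (-0.29, adjusted p = 0.0135). With scaling by library totals the WT and 14-3-3e knockout differences passed (-0.36 and -0.51, adjusted p = 0.0199 and 0.00225), and the second also passed without 14-3-3e knockout M1 replicate 1 (-0.37, adjusted p = 0.049) or M2 replicate 3 (-0.42, adjusted p = 0.0131).

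Laptm4a, the relative of Laptm5 that is found in most cell types (chromosome 12, 8921664 to 8938742, plus strand), did not rise in either knockout. Its M1 values were 15580.4, 14036 and 13014 for WT, 10841, 12356 and 10451 for PGRN knockout and 13018, 11765 and 12738 for 14-3-3e knockout. In M2 they were 7579.7, 7214 and 7624 for WT, 6910.1, 7388 and 7320.0 for PGRN knockout and 6953, 6698 and 7413 for 14-3-3e knockout. All 9 M2 libraries lay below all 9 M1 libraries. In PGRN knockout it fell in M1, with a log2 difference of -0.34 ± 0.08 (adjusted p = 0.00515), a call lost when only the 2 groups were fitted (adjusted p = 0.0922), and in M2 the difference was -0.05 ± 0.08 (adjusted p = 0.721) with a 95% interval of -0.22 to 0.12. In 14-3-3e knockout the differences were -0.18 ± 0.08 (adjusted p = 0.117) in M1 and -0.09 ± 0.08 (adjusted p = 0.552) in M2. M1 was above M2 by 0.92 ± 0.08 (adjusted p = 7.27e-08) in WT, 0.64 ± 0.08 (adjusted p = 6.46e-06) in PGRN knockout and 0.83 ± 0.08 (adjusted p = 3.33e-07) in 14-3-3e knockout.

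Mfsd12, a membrane transporter that is needed to bring cysteine into lysosomes and melanosomes (chromosome 10, 81357491 to 81366225, plus strand), rose without progranulin and fell in the 14-3-3e knockout in M1. In M1 it stood at 3906, 3831 and 4486 for WT, 9614, 8526 and 8957 for PGRN knockout and 2710.1, 2859 and 2867 for 14-3-3e knockout. In M2 it stood at 6213, 5869 and 6831 for WT, 13288, 11449.5 and 13418 for PGRN knockout and 5301, 5448 and 5154 for 14-3-3e knockout. In both states the 14-3-3e knockout libraries were the lowest, WT came next and PGRN knockout was the highest, with no overlap between genotypes. The rise in PGRN knockout was 1.15 ± 0.08 (adjusted p = 1.54e-07) in M1 and 1.01 ± 0.08 (adjusted p = 7.5e-07) in M2. The fall in 14-3-3e knockout was -0.53 ± 0.08 (adjusted p = 0.000663) in M1, and in M2 the difference was -0.25 ± 0.08 (adjusted p = 0.086), which passed without WT M1 replicate 1 (adjusted p = 0.0464). M1 was below M2, with log2 differences of -0.63 ± 0.08 (adjusted p = 1.03e-05) in WT, -0.49 ± 0.08 (adjusted p = 0.000143) in PGRN knockout and -0.91 ± 0.08 (adjusted p = 1.63e-07) in 14-3-3e knockout. Mfsd12 shares 1179 exon bases with 4930404N11Rik and 4 with Fzr1 on the opposite strand; the group means of 4930404N11Rik were 45.8 to 278, against 2812 to 12719 for Mfsd12.

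Set directly against each other, the 2 knockouts differed for 9 of the 10 genes in M1 and 9 in M2, each lower in 14-3-3e knockout, and Laptm4a did not pass in either state. This difference is the 14-3-3e effect minus the PGRN effect of the same fit, so it carries the PGRN rise and is no separate result. Lamp1, Lamp2, Scarb2, Npc1 and Laptm5 did not pass for 14-3-3e knockout against WT in either state. Among all genes 12.5% were lower and 12.5% higher in 14-3-3e knockout than in PGRN knockout in M1, and 9.92% lower and 8.29% higher in M2. Under the stricter filter 4960 of 11645 genes passed in M1 (46.4% of them higher) and 3832 in M2 (43.3% higher). The difference of Mfsd12 was -1.68 ± 0.08 (adjusted p = 1.29e-09) in M1, 3.21-fold, and -1.26 ± 0.08 (adjusted p = 3.74e-08) in M2. That of Cd68 was -1.46 ± 0.11 (adjusted p = 1.1e-07) and -0.84 ± 0.11 (adjusted p = 3.85e-05), and that of Npc1 -0.98 ± 0.17 (adjusted p = 0.000318) and -0.88 ± 0.17 (adjusted p = 0.00115). Laptm4a differed by 0.16 ± 0.08 (adjusted p = 0.175) in M1 and -0.04 ± 0.08 (adjusted p = 0.848) in M2, and the first passed with scaling by library totals (0.34, adjusted p = 0.0129). The narrowest of the 9 differences in M1 was Lamp2, -0.29 ± 0.09 (adjusted p = 0.0223). It was lost without PGRN knockout M1 replicate 1 or 3 or 14-3-3e knockout M1 replicate 1 or 3 (-0.27 to -0.25, adjusted p = 0.0727 to 0.0876) and with scaling by library totals (-0.11, adjusted p = 0.453), where Npc2 in M1 was lost too (-0.23, adjusted p = 0.108). Stromal markers were higher in 14-3-3e knockout than in PGRN knockout for 9 of 13 in M1 and 7 of 13 in M2, and their part in these differences was not tested.

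Whether a knockout acted differently in M1 and M2 was tested by the difference of its 2 effects. By limma, 0 of the 10 genes passed for either knockout, and precision weights on recovered reads also called 0 and 0. Few genes passed at all at the adjusted threshold: 0.469% were higher and 0.783% lower for PGRN, and 0.141% and 0.145% for 14-3-3e. At an unadjusted limma p under 0.05 there were 3 for PGRN (Cd68, Npc2 and Laptm4a) and 1 for 14-3-3e (Mfsd12). The share of all genes at that looser threshold is not given, so these counts cannot be set against the shares above. The nearest to the threshold was Npc2, whose PGRN effect in M1 minus that in M2 was -0.56 ± 0.15 (adjusted p = 0.0943). It passed without WT M1 replicate 2 (-0.70, adjusted p = 0.015) and without both ribosomal RNA-rich libraries (-0.73, adjusted p = 0.0211), with a range of -0.73 to -0.42 and adjusted p = 0.015 to 0.24 over all alternatives. For Cd68 the difference of the PGRN effects was 0.42 ± 0.16 (adjusted p = 0.238), with a 95% interval of 0.08 to 0.75.

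Other lysosomal genes were counted in 7 lists, whose members are not among the 10. Beside their counts stand the shares of all genes tested, of which 14.2% rose and 11.1% fell in PGRN knockout M1 and 11.1% rose and 8.3% fell in M2. Without progranulin, 21 of 35 other lysosomal membrane proteins rose in M1 and 22 in M2, while 1 fell in each state, and the list's median was 0.27 and 0.41. Clcn7, the chloride-proton exchanger of the lysosome, rose by 1.3 ± 0.10 (adjusted p = 3.79e-07) in M1, the cation channel gene Mcoln2 by 1.41 ± 0.15 (adjusted p = 5.87e-06) and the amino acid transporter gene Slc36a1 by 1.04 ± 0.12 (adjusted p = 9.86e-06). Of the 25 genes of the endolysosomal sterol route, 12 rose and 2 fell in M1 and 12 rose in M2 (medians 0.32 and 0.37). The sterol exporter gene Abcg1 rose by 1.65 ± 0.09 (adjusted p = 9.57e-09) in M1 and 1.04 ± 0.09 (adjusted p = 1.23e-06) in M2, Lipa, the acid lipase that frees cholesterol from its esters, by 1.3 ± 0.14 (adjusted p = 9.89e-06) and 1.09 ± 0.14 (adjusted p = 5.44e-05), and Gramd1b, which moves sterol to the endoplasmic reticulum, by 1.41 ± 0.12 (adjusted p = 8.48e-07) in M1. Soat1, which re-esterifies cholesterol, rose by 0.83 ± 0.09 (adjusted p = 1.34e-05) in M2. Of 17 subunits of the V-ATPase, the proton pump that acidifies the lysosome, 12 rose in M1 and 11 in M2 (medians 0.36 and 0.39), with Atp6v0d2 at 1.88 ± 0.11 (adjusted p = 3.8e-08) and 1.40 ± 0.11 (adjusted p = 6.46e-07). Of 40 luminal hydrolases and cofactors, 28 rose and 3 fell in M1 and 29 rose and 3 fell in M2, with Psap, which encodes prosaposin, at 1.33 ± 0.10 (adjusted p = 1.88e-07) and 1.08 ± 0.10 (adjusted p = 2.03e-06).

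Among 18 tetraspanins, the family of Cd63, the directions were mixed in PGRN knockout: 6 rose and 7 fell in M1, and 6 rose and 4 fell in M2. In M1 Cd9 fell, at -0.67 ± 0.11 (adjusted p = 0.000234), and Cd53 rose, at 0.71 ± 0.11 (adjusted p = 0.000145). Of 14 regulators of lysosomal genes, 9 rose in M1, and 9 rose and 1 fell in M2, with Rragd, a small GTPase that places TFEB at the lysosome, at 2.74 ± 0.18 (adjusted p = 8.08e-08) and 1.75 ± 0.18 (adjusted p = 6.75e-06). Of 28 sorting and trafficking genes 18 rose in M1 and 14 in M2, among them Sort1, the sortilin gene, by 0.78 ± 0.11 (adjusted p = 6.35e-05) and 1.15 ± 0.11 (adjusted p = 2.13e-06).

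In 14-3-3e knockout, where 9.31% of all genes fell and 12% rose in M1 and 3.37% fell and 3.32% rose in M2, the largest share of a list was in the V-ATPase, of which 9 of 17 subunits fell and 1 rose in M1 and 8 fell in M2. Atp6v1e1 fell, at -0.57 ± 0.10 (adjusted p = 0.00142) in M1 and -0.53 ± 0.10 (adjusted p = 0.00439) in M2. Of the luminal hydrolases and cofactors 12 of 40 fell and 1 rose in M1 and 7 fell in M2, with the protease gene Lgmn at -0.74 ± 0.08 (adjusted p = 3.33e-05) and -0.54 ± 0.08 (adjusted p = 0.000912). Of the other membrane proteins 8 of 35 fell and 3 rose in M1, and 2 fell and 1 rose in M2. Of the sterol route 2 of 25 fell and 3 rose in M1, shares near those of all genes, among the latter the exporter gene Abca1 by 0.76 ± 0.21 (adjusted p = 0.0189). In M2, 1 of the 25 fell, the scavenger receptor gene Cd36, at -1.20 ± 0.22 (adjusted p = 0.00447).

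**Figure D4:**
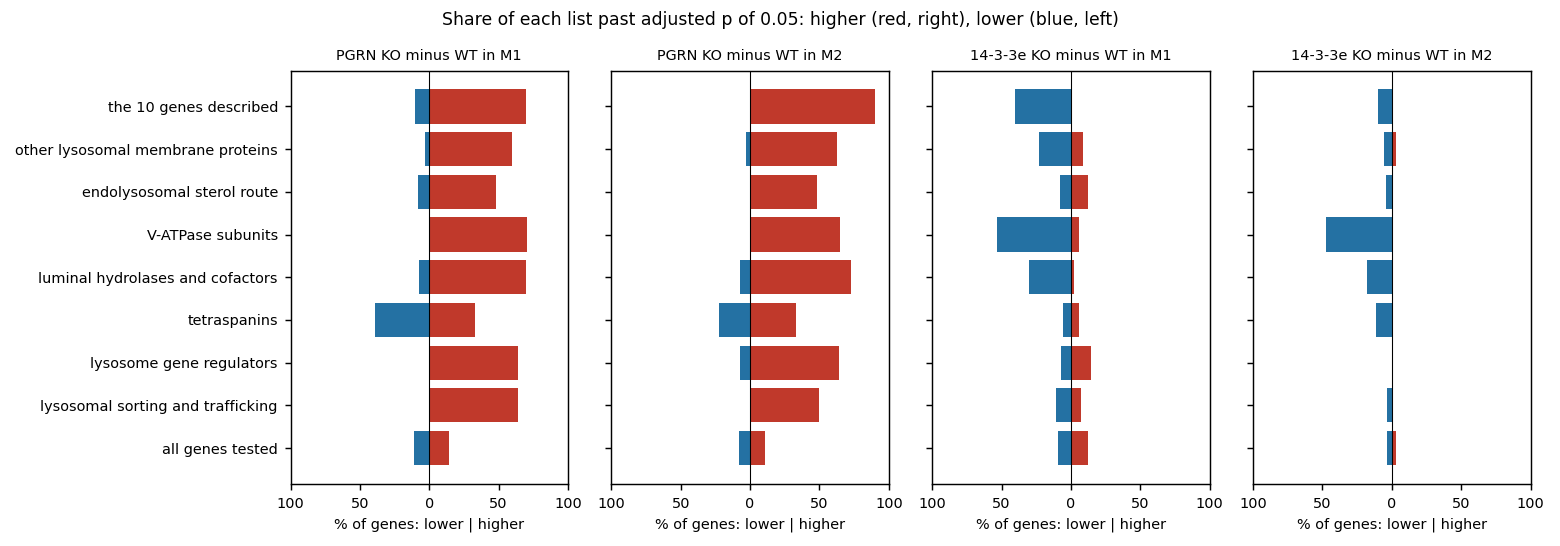
Percent of the genes tested in each list (rows) that were higher (red, right) or lower (blue, left) than WT at an adjusted p under 0.05, in 4 panels for the 2 knockouts and 2 states, with all genes tested in the last row. The 10 genes described stand at 70% and 90% higher in PGRN knockout M1 and M2, against 14.2% and 11.1% of all genes. Most genes tested had lower mean counts than each of the 10.

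Between states in WT, where 18.9% of all genes were higher in M1 and 20% lower, 15 of 40 hydrolases and cofactors were higher in M1 and 12 lower, and of the sterol route 7 of 25 were higher and 11 lower. Stard3, a sterol carrier of the late endosome, was higher in M1 by 1.72 ± 0.09 (adjusted p = 5.22e-11). Of the V-ATPase subunits 7 of 17 were higher in M1 and 6 lower, among the latter Atp6v0d2 at -3.73 ± 0.11 (adjusted p = 7.6e-14). Of the other lysosomal membrane proteins 17 of 35 were higher in M1 and 4 lower, with the metal transporter gene Slc11a1 at 3.11 ± 0.11 (adjusted p = 7.56e-13).

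For 9 of the 10, all but Laptm4a, the gene with the most similar profile was taken among 10291 others with at least 5 reads per M recovered reads, as the smallest root mean square difference between the 6 centred group means, in log2 units. Npc1 was nearest to Lipa (0.13), Scarb2 to Stard5 (0.03), Lamp1 to Lmbrd1 (0.03), Lamp2 to Mr1 (0.06) and Npc2 to Gpsm3 (0.09). Cd68 was nearest to Cd84 (0.13), Cd63 to Bcap31 (0.06), Laptm5 to Plekhm2 (0.06) and Mfsd12 to Galnt6 (0.06). The nearest of the other members was in each case farther than that gene, from 0.11 for Lamp2 and Scarb2 to 0.59 for Npc2, whose nearest was Laptm4a. From 20 (Lamp2) to 686 (Npc2) of the 10291 genes were nearer than that member. With so few members beside so many genes, this order does not show whether the members share a profile. These values describe 6 group means and carry no test.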

How the data were processed

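Total RNA of the 18 libraries was processed with STAR, RSEM 1.3.1 and DESeq2, per the submitters' processing notes, which name a human build although the gene IDs are mouse. The authors deposited log2 of the normalized count plus 1, per gene and library. All value columns were matched to samples. Turned back, 100% of values are whole multiples of 1 step per library within 0.1 read, which gave recovered reads and depth. Depth of 5.16 to 105 M reads sets the precision; thinning to the lowest was an alternative. The 21336 genes were tested with limma 3.58.1 in R 4.3.3 (trend, robust) over 6 group means and 11 comparisons. Between M1 and M2 of 14-3-3e knockout, deviations of same-numbered libraries from their group means correlated at 0.40 to 0.53 (3 pairs; -0.30 to -0.081 for the 6 others), so these were also fitted as pairs; in WT and PGRN knockout they ran from -0.35 to 0.35 and -0.089 to 0.34. Names and positions came from GENCODE M21 on GRCm38 (42425 genes matched), and Python 3.11.15 made tables and figures.

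Members and lists were chosen with earlier results of these data known. Named were all members, Grn and Ywhae, up to 3 genes per list with the smallest p that passed without overlap of libraries, and the nearest profile of each member (a few of these are not reported here); interaction genes, exon neighbours and marker genes at 0 were named after their values were seen. Tested on simulated data of 21336 genes, the fit recovered 83 to 91% of 2-fold changes for knockouts against WT. It also called unchanged genes. For PGRN knockout against WT these were 101 in M1 and 4 in M2. For 14-3-3e knockout they were 40 in M1 and 1 in M2. Calls against WT in M1 may thus hold more false ones than those in M2. The simulation, however, gave all genes and groups the same spread beyond the sampling of reads. In the data, WT M1 libraries correlated at 0.912 to 0.941 with one another, against 0.971 to 0.984 in PGRN knockout M1. The counts of false calls therefore describe the simulated data and do not measure those in the real data. Recovery of changes smaller than 2-fold, as most members had, is not given.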

Additional observations from a re-analysis of the deposited data

How the results depend on the processing

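Counts of members past the threshold stayed within 1.5 times of those reported with a pseudocount of 0.1, no filter (26769 genes), the stricter filter (11645 genes), precision weights, equal depth and library totals. With only the groups compared, 14-3-3e knockout against WT in M1 gave 1 in place of 4. Without both ribosomal RNA-rich libraries the PGRN interaction gave 1 in place of 0. There 14-3-3e knockout against WT in M1 gave 1 higher and 5 lower, in place of 0 and 4. The cause was not tested. Leaving out 1 library gave 6 to 7 for WT M1 against M2, 5 to 9 for PGRN knockout and 6 to 8 for 14-3-3e knockout, 8 to 9 and 9 for PGRN knockout against WT in M1 and M2, 3 to 6 and 1 to 3 for 14-3-3e knockout, and 0 to 1 for the PGRN interaction. The 5 came without PGRN knockout M1 replicate 1, and the 3 for 14-3-3e knockout in M2 without WT M1 replicate 1. Over all genes, only the groups compared gave 5218 in place of 8303 calls for WT M1 against M2, 2134 in place of 5399 for PGRN and 385 in place of 4541 for 14-3-3e knockout against WT in M1; equal depth gave 2696 for the last and 764 in place of 1427 for it in M2. For 14-3-3e knockout against WT in M1 all calls were 2738 without WT M1 replicate 1 and 2970 and 2265 without 14-3-3e knockout M1 replicates 1 and 2. In M2 they were 3277 and 2191 without WT M1 replicates 1 and 2, 670 and 577 without WT M2 replicates 1 and 3, and 581, 716 and 698 without 14-3-3e knockout M2 replicates 1, 2 and 3. For PGRN knockout against WT in M2 they were 2758 in place of 4141 without PGRN knockout M2 replicate 3. Interaction calls ranged from 93 to 658 (267 reported; 658 without WT M1 replicate 1) and 8 to 187 (61 reported; 187 without WT M1 replicate 2).

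Precision weights moved the median of all genes from -0.04 to 0.16 for WT M1 against M2, and from 0.01 to -0.10 for PGRN and 0.07 to -0.11 for 14-3-3e knockout against WT in M1. Scaling by library totals moved the median of all genes from -0.04 to -0.19 for WT M1 against M2, -0.04 to -0.22 in PGRN knockout, 0.03 to -0.16 in 14-3-3e knockout, 0.00 to 0.11 for 14-3-3e knockout against WT in M2, and 0.04 to 0.19 (M1) and -0.00 to 0.14 (M2) against PGRN knockout. The share of all calls that were higher went from 48.5 to 34.2%, 48.1 to 30.0% and 52.0 to 29.8% for M1 against M2 in WT, PGRN and 14-3-3e knockout. It went from 56.3 to 39.4% and 57.2 to 47.2% for PGRN knockout against WT in M1 and M2, from 56.2 to 70.9% and 49.7 to 79.1% for 14-3-3e knockout, and from 50.1 to 73.2% and 45.5 to 70.2% between the knockouts. It went from 49.2 to 27.0% for the 14-3-3e interaction. Members then split, higher and lower, 4 and 4, 3 and 4, and 4 and 4 for M1 against M2, 7 and 1, and 9 and 0 for PGRN knockout, 1 and 3, and 0 and 1 for 14-3-3e knockout, and 1 and 7, and 0 and 9 between the knockouts.

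Only values past no threshold changed sign. With library totals these were Cd63 in WT M1 against M2 (-0.096) and in 14-3-3e knockout (-0.15), 14-3-3e knockout against WT for Scarb2 in M1 (0.028), Laptm4a in M2 (0.036) and Laptm5 in M2 (0.011), Laptm4a between the knockouts in M2 (0.14), and the PGRN and 14-3-3e interactions of Lamp1 (-0.028 and -0.032). Those of Lamp1 also turned without the ribosomal RNA-rich libraries (-0.10 and -0.11), and the 14-3-3e interaction of Cd63 with precision weights (0.00054) and equal depth (0.027). Leaving out 1 library, the ranges that crossed 0 were -0.056 to 0.17 for Cd63 and -0.29 to 0.0018 for Cd68 in WT M1 against M2, -0.24 to 0.033 for Npc2 in PGRN knockout M1, -0.029 to 0.35 and -0.070 to 0.11 for Npc1 in 14-3-3e knockout M1 and M2, and -0.18 to 0.012 for Laptm5 in 14-3-3e knockout M2. For interactions they were -0.054 to 0.076 (PGRN) and -0.057 to 0.073 (14-3-3e) for Lamp1, and for 14-3-3e -0.098 to 0.13 for Cd63, -0.070 to 0.31 for Npc1 and -0.23 to 0.026 for Laptm5.

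No labels say that libraries with the same number share a mouse or day. Over all pairs of groups their deviations had a median correlation of -0.030 (-0.35 to 0.53, 45 pairs), and a fit with 1 replicate block over all groups gave the same count of members in all 11 comparisons, such as 8 and 9 for PGRN knockout against WT in M1 and M2. Pairing was used within 14-3-3e knockout only, chosen after seeing the data: that replicate block gave 9 in place of 8 members for M1 against M2 (Laptm5 added) and 0 for the interaction.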
